A study of Mus musculus with 9 samples.

Results

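A CpG dyad is the pair of cytosines that face each other at one CpG site, the first on the forward strand and the second on the reverse strand of the DNA. The dyads described here are autosomal CpGs of the mm9 build with a forward-strand value at one base and a reverse-strand value at the next base, each from at least 30 reads in 3 pools named WT, R and WWD. They number 122995 of 1471405 CpGs with a value on either strand in any table used. Methylation levels were not part of the rule. Coverage was, and read depth moved with strand differences as given below, so the choice may not be independent of the values. In these pools 245856 autosomal CpGs had both strands at 10 reads or more, and 788128 reached 30 reads on 1 strand only. Those read on 1 strand averaged 18.2% methylated in WT, 18.9% in R and 8.07% in WWD, and the dyads read on both averaged 13.3%, 13.8% and 6.16%.

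The measurements come from reduced representation bisulfite sequencing (RRBS), in which unmethylated cytosine is read as T and methylated cytosine as C in fragments cut by MspI. All 9 samples are Dnmt TKO mouse embryonic stem cells of the J1 line at passage 7 to 10, so every group, controls included, lacks its own DNA methyltransferases. The groups are TKO without a construct (1 sample), WT with wild-type Dnmt3a2, R and WWD with constructs of Dnmt3a2 so named (2 samples each), and C, for which no construct is recorded (2 samples). The labels tie 1 deposited table to both samples of WT, R, WWD and C. Each table is called a pool below, on the assumption that it joins both samples, although a table of 1 sample only could not be told apart from that. No spread between replicates can be given, the amount of each construct was not measured here, and every test compares the reads of 2 strands within a pool, or 2 pools, and not conditions.

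In most mammalian cells Dnmt1 restores methylation after DNA replication: it finds CpGs methylated on the parental strand only and methylates the new strand, so that dyads are usually methylated on both strands or on neither. Dnmt3a and Dnmt3b methylate CpGs that carry no methylation, one strand at a time, and Dnmt3a2 is the shorter isoform of Dnmt3a. Cells without Dnmt1 lack this copying step. Reads of the strands come from separate molecules here. The values therefore give the share of molecules methylated on each strand, and never show whether one molecule is methylated on both.

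The strands of a dyad differed far more than read counting allows in the 3 pools with a Dnmt3a2 construct. They differed by few points in TKO and C, where low levels left little room for a difference. The mean absolute difference between strands was 9.56 percentage points in WT, against 1.97 points from binomial counting of the same reads at a shared level. In R it was 10.9 against 1.89 points, and in WWD 8.86 against 1.54 points. In TKO it was 0.565 against 0.269 points and in C 0.520 against 0.297 points, at mean levels of 0.315% (117754 dyads with at least 10 reads on both strands) and 0.306% (122888 dyads). Of the largest difference possible at the level of the dyads, this was 89.5% in TKO and 84.8% in C. It was 40.2% in WT, 44.8% in R and 73.3% in WWD. TKO and C thus cannot show how far strands would differ at the levels of the other pools. The median depth per strand was 132 reads on the forward and 131 on the reverse strand in WT, 148 on each in R and 126 on each in WWD. With the counting variance removed, the strand difference had a standard deviation of 18.2 points in WT, 20.8 in R, 20.4 in WWD, 1.68 in TKO and 1.0005 in C. This quantity, called the excess SD below, is a spread over dyads and not over samples. At the edge of the coverage rule, dyads whose lowest coverage was 30 or 31 reads (5857) had an excess SD of 19.2 points in WT, 22.7 in R and 23.4 in WWD, and CpGs left out at 28 or 29 reads (6809) had 18.6, 22.0 and 22.3 points.

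For single dyads, methylated and unmethylated reads of the forward strand were set against those of the reverse strand by Fisher's exact test (two-sided). A dyad was called where its strands lay 25 points or more apart and the Benjamini-Hochberg adjusted p was under 0.01. In WT 18721 dyads were called, 15.2% of those tested, with the forward strand higher in 9364 (7.61%) and the reverse in 9357 (7.61%). In R 21379 were called (17.4%), with 10648 higher on the forward (8.66%) and 10731 on the reverse strand (8.72%). In WWD 14064 were called (11.4%), 7035 (5.72%) and 7029 (5.71%) by strand. The calls were thus split evenly over the strands of the reference in each pool. In TKO 44 of 117754 dyads were called (0.0374%), 25 higher on the forward (0.0212%) and 19 on the reverse strand (0.0161%). In C none was called among 122888 by Fisher's exact test, where 2146 had an unadjusted p under 0.05 (1.75%) and the widest difference was 25.9 points. The low mean levels of TKO and C leave little room for 25 points, so their counts do not measure calls at the levels of WT. All these shares are the backgrounds against which counts in subsets are read.

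Read depth moved with the wide differences, most of all in WWD. Among 3038 dyads that differed by at least 75 points in WWD, the strand that was higher there had a median of 14 reads in TKO and 57 in WWD, and the lower strand had 165 and 156 reads. In WT the same strands had 126 and 151 reads, and 1606 of these dyads lacked a TKO value on one strand or both and are not in the TKO medians. Where the strands differed by less than 10 points in WWD (50725 dyads), the TKO medians were 132 and 126 reads. The part of depth in these differences was not tested. Results are therefore also given for dyads at full depth, which means that the TKO depth was 0.5 times the WT depth or more on both strands. These were 80416 of the 122995 dyads (65.4%). There 6490 dyads were called in WT (8.07%), 7115 in R (8.85%) and 1829 in WWD (2.27%), and excess SDs were 12.4, 13.3 and 7.07 points. The other 42579 dyads held 12235 of the 14064 WWD calls, with an excess SD of 33.3 points in WWD. Of the 44 TKO calls, 43 lay outside full depth.

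**Figure D1:**
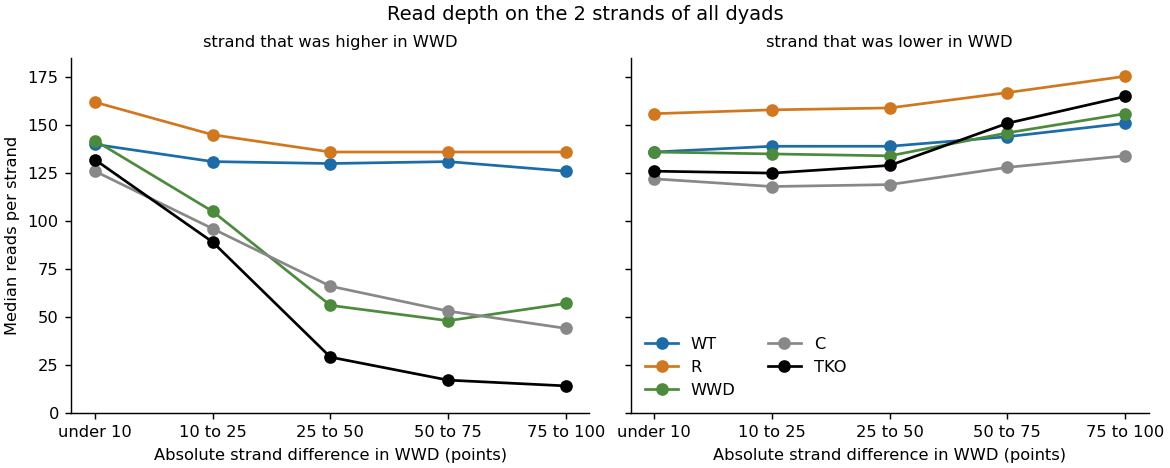
Median reads per strand (vertical axis) of all dyads grouped by their absolute strand difference in WWD (horizontal axis, percentage points), on the strand that was higher in WWD (left) and on the other strand (right), 1 line per pool. On the higher strand TKO falls from 132 to 14 reads and WWD from 142 to 57, and WT stays between 126 and 140.

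Spacing to other CpGs also moved with the differences. Among full-depth dyads at 5% or more in WT, 1109 pairs lay 46 to 50 bp apart, and in WT the upstream dyad averaged 31.7% on the forward and 13.4% on the reverse strand, with the mirror image of 12.4% and 32.0% at the downstream dyad. Of 264 such pairs with both dyads called in WT, 20 had the same strand higher (7.58%). The position of the dyads in their reads was not followed further. At full depth and any level, 44496 dyads had another CpG value 46 to 50 bp away. Fewer of them were called in WT, 5.34% against 8.07% of all full-depth dyads, at mean WT levels of 4.66% and 9.41%. Dyads at full depth with no other CpG value 46 to 50 bp away are called full depth with clear spacing below. They number 35920 (29.2% of all), and the subset was chosen after the values were seen. Its WT calls numbered 4112 (11.4%, against 15.2% over all dyads and 8.07% at full depth), 2047 with the forward and 2065 with the reverse strand higher. In R 4626 were called (12.9%) and in WWD 1324 (3.69%). Of these dyads 18395 also had forward-strand values upstream and reverse-strand values downstream of like coverage within 5 to 45 bp, and 10.4% of them were called in WT, 11.8% in R and 4.22% in WWD. Their mean level in WT was 10.36%, against 15.3% in the subset, so these shares are not at like levels. Their excess SD in WT was 14.2 points, against 14.7 in the subset.

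At full depth with clear spacing the mean level was 15.3% in WT, 15.5% in R and 4.16% in WWD. The mean absolute strand difference was 8.46 points in WT against 2.31 from counting, 9.04 against 2.15 in R and 4.61 against 1.33 in WWD. The excess SD was 14.7 points in WT (13.5 to 15.97 over the 19 autosomes), 15.8 in R (14.7 to 17.4) and 8.94 in WWD (8.15 to 10.4). Every autosome thus had a smaller excess SD in WWD than any had in WT. The share called ranged over autosomes from 9.35% to 13.7% in WT, from 11.5% to 15.7% in R and from 2.62% to 5.42% in WWD. Small depth differences were left in this subset too: at 3662 dyads that differed by 25 to 50 points in WT, the higher strand had a median of 133 reads in TKO and the lower 151, and in WT 136 and 146.

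The difference between strands depended on the level of the dyad, the mean of its strands. Among dyads under 1% in WT (15547), the mean absolute difference was 0.307 points against 0.218 from counting, and none was called. From 1 to 5% (4070 dyads) it was 2.94 against 1.52 points, and from 5 to 20% (4408 dyads) 10.4 against 3.35. It was widest from 20 to 40% (6214 dyads, 20.5 against 4.76 points) and from 40 to 60% (4584 dyads, 21.5 against 5.17), where 2106 and 1581 dyads were called. At 60 to 80% (1080 dyads) it narrowed to 14.6 against 4.96 points, with 183 called. These classes are of dyads at full depth with clear spacing, of which 11.4% were called in WT, against 15.2% of all dyads. The room for a difference narrows towards 0% and 100% by arithmetic. As a percent of the largest difference possible at the same level, the strand difference declined from 43.2% at 5 to 20% methylation to 33.8%, 23.9% and 21.3% in the higher classes. Counting error is a part of these percents.

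To set the pools side by side without sorting WT by its own reads, dyads were grouped by their level in R. From 20 to 40% in R (6281 dyads) WT differed by 20.3 points between strands, with a mean level of 30.4%, and WWD by 8.68 points with a mean level of 6.94%. From 40 to 60% (4484 dyads) the differences were 21.02 points in WT and 13.5 in WWD, at mean levels of 47.5% and 12.6%. From 60 to 80% (1193 dyads) they were 15.3 and 15.5 points, at 62.5% and 21.7%. As a percent of the largest possible difference WWD was at 62.6%, 53.5% and 35.8%, against 33.5%, 24.5% and 20.6% in WT, but at lower levels. This percent was higher at low levels in WT, R and WWD, and over the whole subset it was 84.1% in TKO and 83.9% in C, at mean levels of 0.191% and 0.280%. At like mean levels, though in other dyads, WT was at 41.8% (5 to 20% in R, mean 12.1% in WT) and WWD at 53.5% (40 to 60% in R, mean 12.6% in WWD). The difference expected from counting alone was 2.36, 3.14 and 3.93 points in WWD.

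**Figure D2:**
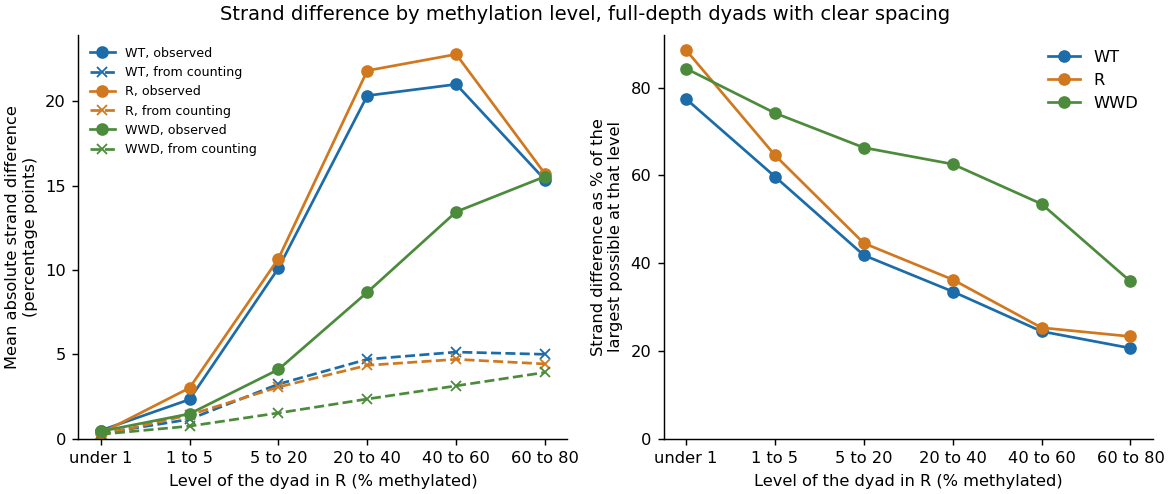
Left: mean absolute strand difference (vertical axis, percentage points) of dyads at full depth with clear spacing by their level in R (horizontal axis, percent), observed as solid lines and expected from counting as dashed lines, 1 colour per pool; right: the same difference as a percent of the largest possible at that level. WT peaks at 21.02 points in the 40 to 60% class, and WWD keeps rising to 15.5 points at 60 to 80%; the 34 dyads above 80% in R are not drawn.

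CpG density was taken as the number of CpGs with a value in the 1 kb tile that holds the dyad. Sparse tiles held the methylated dyads: at full depth with clear spacing, WT averaged 32.6% in tiles with fewer than 5 CpGs, 29.6% with 5 to 9, 14.0% with 10 to 19, 2.27% with 20 to 39 and 0.581% with 40 or more. The excess SD in WT declined with it, from 21.8 points through 20.3, 14.0 and 5.14 to 2.10 points, and the called dyads numbered 1429 of 5654, 1933 of 8616, 646 of 6280, 89 of 7455 and 15 of 7915. Over the whole subset 11.4% of dyads were called in WT. Most of the decline in excess SD went with the level. Among dyads at 20 to 60% in R, the excess SD in WT was 25.1 points in the sparsest tiles (3752 dyads), 24.8 (5040), 24.1 (1723) and 22.0 (228), and 21.2 in the densest, where only 22 dyads were left. In WWD it was 14.6, 14.6, 14.1, 12.6 and 16.5 points in the same classes. The spread over autosomes in all dyads of the subset was as wide as the steps between the first 3 classes.

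Distance to the nearest other dyad showed a wider step. Among dyads at 20 to 60% in R, the excess SD in WT was 28.8 points where another dyad lay 2 to 5 bp away (748 dyads), 27.96 at 6 to 10 bp (836), 27.3 at 11 to 20 bp (1005) and 26.1 at 21 to 50 bp (1375). It was 21.1 at 51 to 100 bp (360 dyads), 22.7 beyond 100 and up to 1000 bp (1757) and 23.4 beyond 1000 bp (4684). R went from 31.9 points in the nearest class to 25.2 in the farthest. WWD went from 19.4 through 18.98, 16.5 and 15.04 to 12.4, 12.3 and 12.8 points. The share called in WT was 43.3% in the nearest class and 30.4% in the farthest, and in WWD 19.1% and 7.17%. Over the whole subset, at any level, 11.4% were called in WT and 3.69% in WWD. The WT level was alike, 35.9% in the nearest and 37.9% in the farthest class, and the WWD level was 12.3% and 8.46%.

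Dyads were then named by their strand difference in R, so that their values in WT and WWD took no part in the ranking, and chromosome 18 was left out of naming. Intervals are Wilson 95% intervals on reads, which cover counting error only. The widest differences over all dyads lay outside full depth without exception. The dyad at chr4:141029486-141029487 was 99.1% methylated on the forward and 1.45% on the reverse strand in R (115 and 69 reads). In WT it was 98.5% (94.6 to 99.6) on 130 reads and 0.990% on the reverse strand, and in WWD 100% on 99 reads and 0% on 54 reads. It had no value for both strands in TKO or in C. Its mirror was the dyad at chr12:85431007-85431008, with 2.41% on the forward and 98.7% on the reverse strand in R, 6.94% and 95.6% in WT and 0% and 96.3% in WWD. The other 8 dyads of this ranking, 4 for each direction, differed by 61.5 to 92.7 points in WT and by 82.4 to 100 points in WWD, on the same strand as in R. The difference was wider in WWD than in WT at 7 of the 10. Only one of the 10, at chr7:139418159-139418160, had a TKO value on both strands, 0% on 24 forward and 83 reverse reads.

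The same ranking within full depth and clear spacing was added after these values were seen, and gave dyads with reads in all 5 pools. The dyad at chr4:134176047-134176048 was 88.5% methylated on the forward strand (209 reads) and 1.39% on the reverse strand (216 reads) in R. In WT it was 83.3% (76.7 to 88.4) on 156 reads and 4.19% on 215 reads, and in WWD 64.1% (57.1 to 70.5) on 192 reads and 0.452% on 221 reads. In TKO it was 0% on 202 and 0.543% on 184 reads, and in C 2.13% on 188 and 0% on 162 reads. The forward strand was high in WT, R and WWD, and the reverse strand low, with a WT interval of 2.22 to 7.76% that overlaps that of TKO (0.0960 to 3.01%).

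The dyad at chr8:74236104-74236105 showed the opposite orientation on still more reads. It was 4.42% methylated on the forward strand (385 reads) and 84.9% on the reverse strand (423 reads) in R, 3.79% and 77.6% in WT (290 and 322 reads) and 0% and 60.3% in WWD (304 and 295 reads). TKO had 0% on both strands (307 and 408 reads), and C 0% and 1.68%. At chr3:87536551-87536552, where the nearest other dyad was 15741 bp away, the forward and reverse strands were 83.2% and 1.04% in R, 72.6% and 3.49% in WT and 30.7% and 0% in WWD. CpGs outside the dyads described here had values within 5 to 45 bp on each side of it. This dyad kept its high strand in WWD at less of the WT level than the former dyads did.

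Of the 10 dyads so ranked, 9 were called in WT and in WWD as well, in the direction of R. The exception was the dyad at chr16:43702976-43702977, which had the fewest reads. It was 3.13% and 83.8% methylated in R (32 and 37 reads), 36.7% (21.9 to 54.5) and 45.7% in WT (30 and 35 reads) and 5.88% and 33.3% in WWD (34 and 51 reads). Its adjusted p was 1 in WT and 0.0161 in WWD by Fisher's exact test with Benjamini-Hochberg adjustment, neither past the threshold. In the other 9, WT differed by 35.9 to 79.1 points and WWD by 30.1 to 67.0 points.

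**Figure D3:**
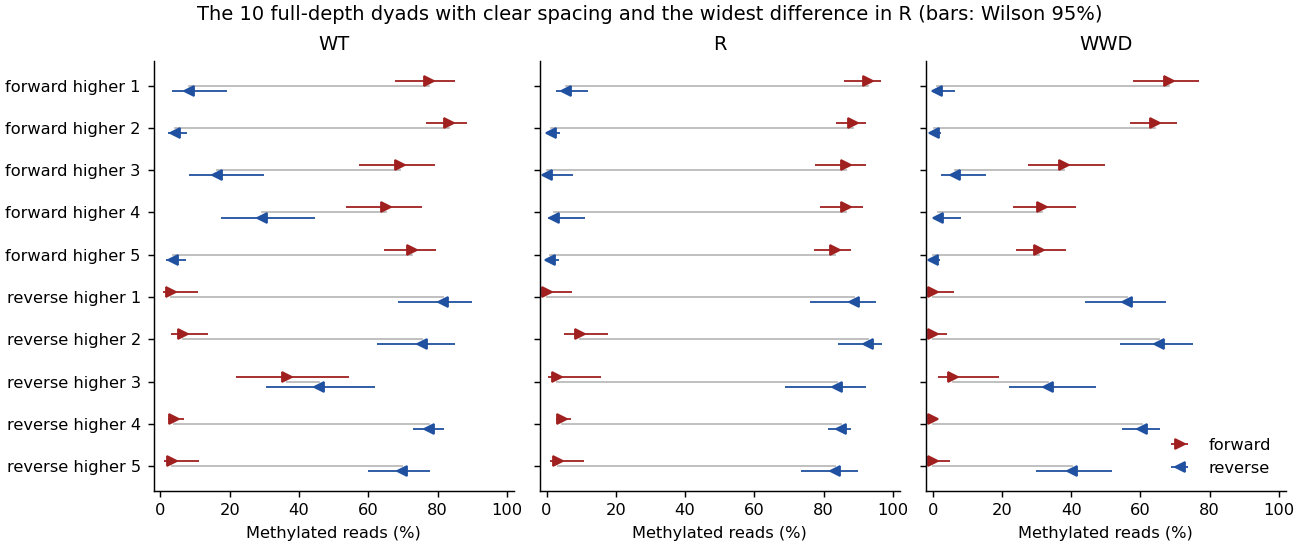
Methylated reads in percent (horizontal axis) on the forward strand (right-pointing red triangles) and the reverse strand (left-pointing blue triangles) of the 10 dyads at full depth with clear spacing that differed most in R, in WT, R and WWD; bars are Wilson 95% intervals and the grey line joins the strands of a dyad. The order of the strands is the same in the 3 pools at every dyad, with overlapping intervals only at the third reverse-higher dyad, on chromosome 16, in WT.

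High levels on both strands were also found. The dyads with the smallest difference in R among those at 50% or more on both strands were chr8:125175756-125175757, chr1:36484470-36484471 and chr7:6154230-6154231. The first, at full depth with clear spacing, was 50% on both strands in R (244 and 168 reads) and 56.6% and 54.7% in WT (235 and 172 reads). In WWD it was 0.433% on the forward strand (231 reads) and 6.12% on the reverse strand (147 reads), a difference of 5.69 points with an adjusted p of 0.00653 by Fisher's exact test with Benjamini-Hochberg adjustment, too small to be called. The second and the third lay outside full depth. The second was 55.6% on both strands in R, 69.5% and 67.0% in WT and 6.67% and 6.82% in WWD. The third was 52.3% on both in R, 45.5% and 42.9% in WT and 13.0% and 21.7% in WWD (54 and 226 reads). In TKO the third had 13 forward and 218 reverse reads. All of these dyads were near even in WT also, at 1.94 to 2.67 points. Genes around the named dyads are not given, since no annotation of mm9 was used here.

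The direction of the difference was shared among the pools. The pools share no reads, so each gives its own reading of a dyad, although they share the cell line, the sites and the way the libraries were made. Of the 4626 dyads called in R at full depth with clear spacing, 4583 had the same strand higher in WT (99.1%), 3106 of them were called there too, and none was called the opposite way. In WWD 4477 had the same strand higher (96.8%) and 1087 were called, against the 11.4% called over all dyads in WWD and 3.69% in this subset. From WT to WWD the same strand was higher at 3980 of 4112 dyads (96.8%). Over all 122995 dyads, 21263 of the 21379 called in R had the same direction in WT (99.5%) and 20953 in WWD (98.01%), where a single dyad was called the opposite way. All 973 dyads of the subset called in WT, R and WWD had one direction in the 3 pools.

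Small differences carried less of the direction. At full depth with clear spacing, dyads that differed by 5 to 10 points in R had the same strand higher in WT in 74.9% and in WWD in 67.5%. From 10 to 25 points these shares were 89.4% and 81.4%, from 25 to 50 points 98.8% and 96.2%, and from 50 to 75 points (671 dyads) 100% and 99.9%. Across the 35920 dyads the signed difference had a Pearson r of 0.877 between WT and R, 0.779 between R and WWD and 0.772 between WT and WWD. Over all 122995 dyads r was 0.936, 0.847 and 0.814. These coefficients describe dyads, which are not replicates and share libraries.

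**Figure D4:**
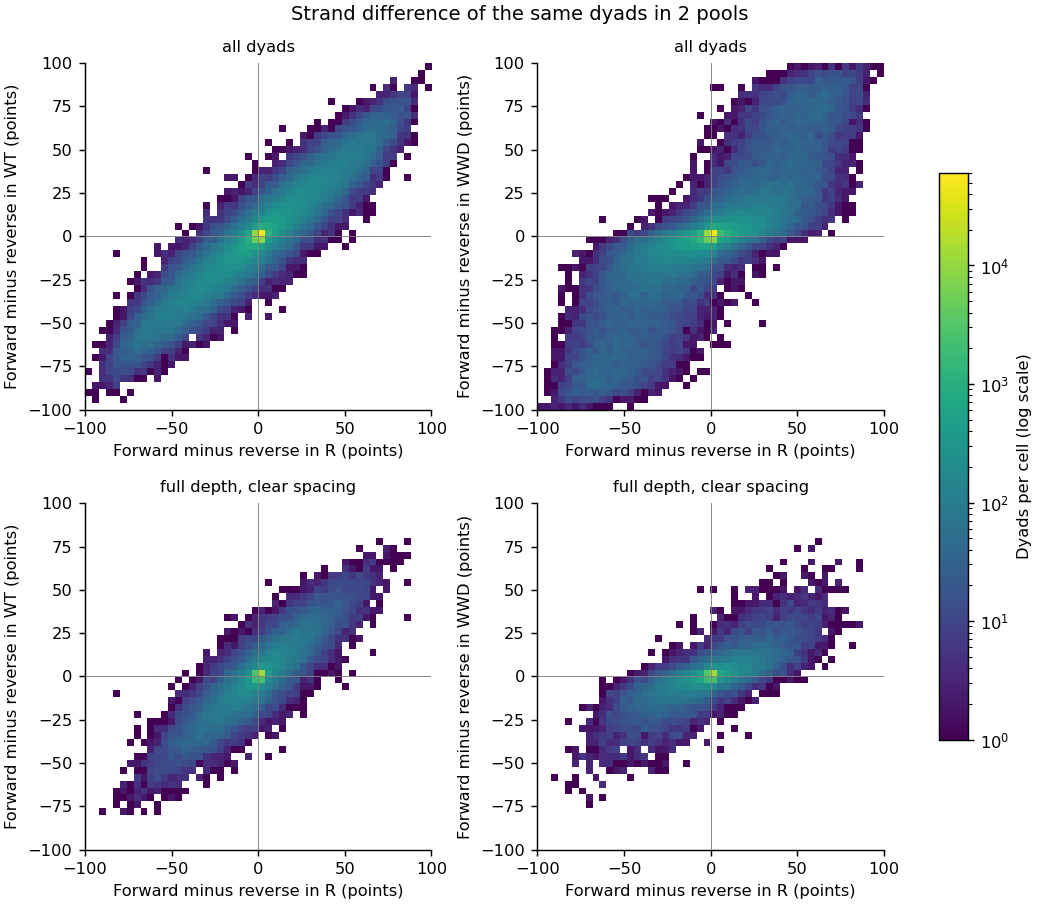
Forward minus reverse methylation (percentage points) of each dyad in R (horizontal axes) against WT (left) and WWD (right, vertical axes), for all dyads (top) and for those at full depth with clear spacing (bottom); colour gives the number of dyads per cell on a log scale. Dyads lie along the diagonal in WT, and in WWD the cloud is flatter than the diagonal at full depth (bottom right) and bends to 100 points in the plot of all dyads (top right).

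The strand that was higher in R kept more of its methylation in WWD than the other strand did. Among the 4626 dyads called in R at full depth with clear spacing, WT averaged 53.5% on the strand that was higher in R and 21.5% on the other, a ratio of 2.48. WWD averaged 20.5% and 3.12%, a ratio of 6.57. WWD thus reached 38.3% of the WT level on the higher strand and 14.5% on the lower one. These strands were at unlike levels in WT. Among dyads grouped by their level in R, WWD also reached more of the WT level in the higher classes. Strands at a like WT level were not compared, so the part of the level in this contrast was not tested. Of 4542 such dyads with methylated reads on both strands in WT, the ratio of WWD to WT was larger on the higher strand in 3949 (86.9%). The median log odds ratio between the strands (natural log) was 1.57 in WT and 2.25 in WWD. Dyad by dyad, few such changes passed the test of the difference given below.

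Called dyads were seldom methylated on 1 strand alone in WT. At full depth with clear spacing, the 4112 dyads called in WT had a median of 56.9% on the higher and 17.8% on the lower strand. The lower strand was at 5% or more in 3613 of them (87.9%) and at 0 in 68. In WWD the 1324 called dyads had medians of 37.2% and 2.78%, with the lower strand at 5% or more in 438 (33.1%) and at 0 in 266. The lower strand thus lay well above the TKO mean of 0.315% at most called dyads of WT. Across the 16303 dyads of this subset at 5% or more in WT, the levels of the forward and the reverse strand had a Pearson r of 0.399 in WT, 0.359 in R and 0.100 in WWD, where the points share a library and the range of levels. Over all 35920 dyads of the subset, at any level, r was 0.744 in WT, 0.717 in R and 0.334 in WWD. The cut at 5% was made on the mean of the strands in WT, so r depends on it.

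The test of the strand difference itself between pools found few dyads. It compared the log odds ratio of forward against reverse between 2 pools, with 0.5 added to each cell of the read counts, by a two-sided z test with Benjamini-Hochberg adjustment at 0.01. Between R and WT 214 of 122995 dyads passed (0.174%), 155 of them with a larger odds ratio in R in the same direction, 9 with a smaller one and 50 with the other direction or a zero difference in one of the pools. Between WWD and WT 3575 passed (2.91%), of which 3279 had the same direction and a larger odds ratio in WWD, 32 a smaller one and 264 the other direction or a zero difference in one of the pools. None of the 3575 was called in opposite directions in both pools. At full depth with clear spacing 15 passed between R and WT and 23 between WWD and WT, where the p-values were adjusted within that subset. The split differed there: of the 23, 9 had the same direction and a larger odds ratio in WWD, 2 a smaller one and 12 the other direction or a zero difference, and of 39 at full depth the counts were 13, 9 and 17.

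Neighbouring dyads leaned to the same strand when up to 10 bp apart, and less so at 11 to 25 bp. Among pairs of dyads at 5% or more in WT, at full depth with clear spacing, the signed strand difference of one had a Pearson r of 0.31 with that of the other at 2 to 5 bp (511 pairs) and 0.26 at 6 to 10 bp (555 pairs) in WT. It was 0.034 at 11 to 15 bp (409 pairs) and 0.057 at 16 to 20 bp (350 pairs). In R the first 3 values were 0.30, 0.28 and 0.062, and in WWD 0.28, 0.25 and 0.053. Where both dyads of a pair were called in WT, the same strand was higher in 51 of 66 pairs at 2 to 5 bp (77.3%), in 44 of 61 at 6 to 10 bp (72.1%) and in 20 of 38 at 11 to 15 bp (52.6%). At 26 to 30 bp r was 0.21 in WT (277 pairs), 0.26 in R and 0.15 in WWD, but for dyads inside fragments at full depth (252 pairs) it was 0.088, 0.112 and -0.0048. By single distances, over full-depth pairs of any level, r in WT was 0.25 at 29 and at 30 bp and 0.020 to 0.041 at 26 to 28 bp. It was uneven at shorter distances too, with 0.28 at 2 bp, 0.061 at 4 bp, 0.22 at 9 bp, -0.088 at 15 bp and 0.14 at 17 bp. The limit of 10 bp is thus one of distance classes and not sharp. Neighbouring dyads are read on the same molecules, so a molecule methylated at both counts at both.

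**Figure D5:**
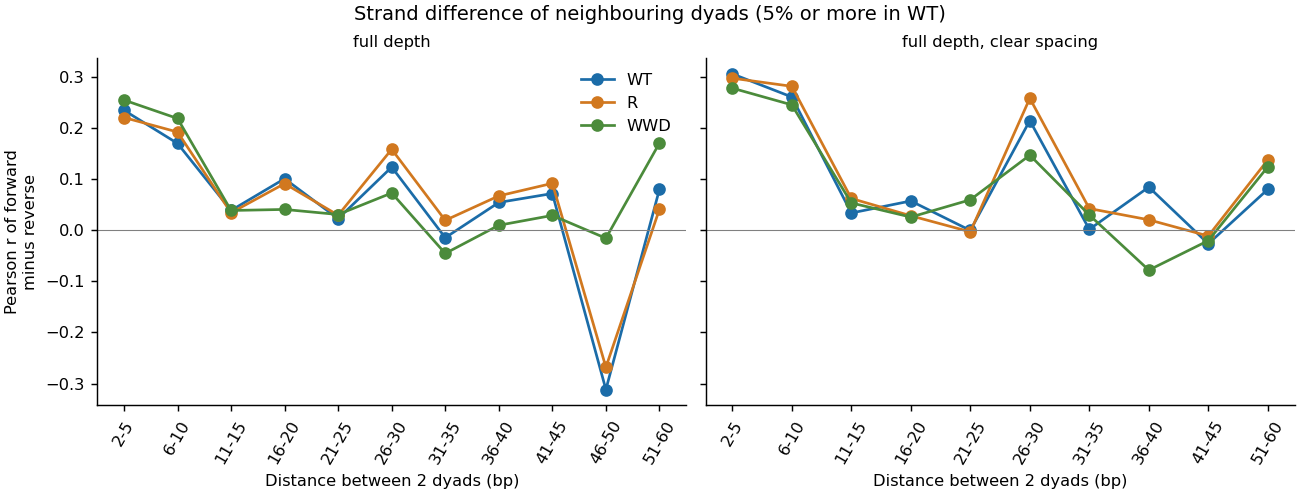
Pearson r of the forward-minus-reverse difference between neighbouring dyads (vertical axis) by the distance between them (horizontal axis, bp), 1 line per pool, at full depth (left) and at full depth with clear spacing (right). With clear spacing r is 0.31 in WT at 2 to 5 bp and 0.034 at 11 to 15 bp, with 0.21 at 26 to 30 bp; at full depth the drop to -0.31 in WT at 46 to 50 bp is the mirrored pattern of pairs at that spacing.

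Among dyads at 5% or more in WT, levels of neighbours on one strand were more alike than the strands of one dyad. That cut was made on the mean of a dyad's own strands, which by arithmetic lowers the r between them. In WT this r was 0.744 over the whole subset at any level and 0.399 after the cut. The order of the values below was not tested without the cut. For the same pairs in WT at 2 to 5 bp, the level of a strand had an r of 0.595 with the same strand of the neighbour, 0.376 with the opposite strand of the neighbour and 0.289 with the opposite strand of its own dyad. At 6 to 10 bp these were 0.565, 0.383 and 0.296, and at 11 to 15 bp 0.457, 0.433 and 0.292. At 11 to 15 bp both strands of the neighbour were thus about equally close, and each closer than the facing strand of the same CpG after this cut. Neighbours on one strand share reads, and the facing strands of a dyad do not.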

How the data were processed

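RRBS libraries were made from MspI fragments, per the labels' protocols. Bismark and methylKit, with the build mm9, are listed in the submitters' processing notes without versions or order. Per the file headers, the deposited tables hold the read count (coverage) of each position by strand. They also hold the deposited percent of those reads that showed C. A check of the tables found no position under 10 reads. Both were multiplied, and rounded, to give methylated reads. Of 6 tables, 5 were used, and 8 columns of values were not used, among them those of a table named AAA that the labels tie to no sample, which is not used here.

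Members and subsets were chosen with earlier results of these data known. Fisher's exact test compared forward with reverse counts, and its p-values had Benjamini-Hochberg adjustment over all member dyads of a pool (TKO and C: member dyads with at least 10 reads on both strands). Calls needed an adjusted p under 0.01 and 25 points. Counts of calls in a subset keep the adjustment over all dyads unless said otherwise. The counting expectation is the exact binomial mean absolute difference at the pooled level of the dyad, and the excess SD is the square root of the mean squared difference minus the binomial variance of each strand. Pool differences were tested as differences of log odds ratios. Named dyads were the 5 with the largest forward-minus-reverse and the 5 with the largest reverse-minus-forward difference among those called in R, and the 3 most even at 50% or more on both strands. The alternatives changed the coverage minimum, the difference, the adjusted p, the counts (halved), the strand coverage ratio, the coverage limit, and the dyads used. Copies made by PCR look like separate molecules here, so tests and intervals cover counting error only, and p-values are too small where molecules were read more than once. The scripts were tested on simulated reads. Python 3.11.15, numpy 2.4.6, pandas 2.3.3, scipy 1.17.1, numba 0.67.0, matplotlib 3.10.9 and statsmodels 0.14.6 were used.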

Additional observations from a re-analysis of the deposited data

Results flagged for a closer look

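The strand difference differed between pools by the test of the difference itself at 214 dyads between R and WT and at 3575 between WWD and WT. Run on full-depth dyads alone, the test passed at 39 dyads for WWD and 13 for R, and with clear spacing as well at 23 and 15. Depth in TKO moved with the wide WWD differences, and its part was not tested.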

How the results depend on the processing

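The values compared here are counts, spreads and shares, which have no sign to reverse. The order of WWD and WT turned with the dyads used. The excess SD was wider in WWD than in WT over all dyads (20.4 and 18.2 points), with a coverage minimum of 50 and with clear spacing alone, and narrower with a minimum of 100, with even strand coverage, inside fragments and at full depth, as given below. With a difference of at least 40 points, 9254 dyads were called in WT, 12089 in R and 9810 in WWD, so WWD had more calls than WT there and fewer at 25 points. In the order WT, R, WWD, a coverage minimum of 50 gave 11142, 12369 and 6867 calls and excess SDs of 16.8, 18.8 and 17.5 points. A minimum of 100 gave 3954, 4332 and 1551 calls and 13.1, 14.1 and 10.2 points. Strand coverage ratios of 0.5 to 2 gave 7780, 8724 and 3942 calls and 14.7, 16.2 and 13.1 points. With p-values adjusted within the subset, full depth gave 6451, 7098 and 1824 calls (12.4, 13.3 and 7.07 points), dyads inside fragments 5601, 6516 and 2945 (12.8, 14.2 and 9.51 points), and full depth with clear spacing 4099, 4625 and 1322 (14.7, 15.8 and 8.94 points). Clear spacing without the depth rule gave excess SDs of 21.5, 24.8 and 25.8 points. Both subsets that use spacing were added after the data were seen.

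The test between R and WT passed at 748 dyads with an adjusted p under 0.05, at 2 with counts halved, at 141 with a coverage minimum of 50, at 13 at full depth, at 21 inside fragments and at 15 at full depth with clear spacing. For WWD and WT these counts were 5714, 255, 2067, 39, 72 and 23. Dyads called in R had the same direction in WT in 99.6% with a minimum of 50, 99.3% at full depth and 99.1% with clear spacing too. In WWD the shares were 96.3% at full depth, 96.8% with clear spacing too, and 98.3% with the lower strand at 5% or more. From WT to WWD they were 96.3%, 96.8% and 98.3%, and 98.7% inside fragments. In all 63 values moved and 27 stayed within their limits.

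No paired analysis was possible because both numbered samples of a group share 1 deposited table, and for the same reason none was left out in turn. Depth limits single dyads: with 30 reads on a strand, narrow differences do not reach the threshold. An upper limit on coverage and halved counts left the 3 counts of called dyads within 1.5 times.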
